A study of Mus musculus with 16 samples.

Results

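The genes of cholesterol and dolichol synthesis were followed in the mouse retina after spaceflight. They were chosen by name, though with earlier results of these data known. The 34 genes control sterol synthesis, carry it out, branch from it towards dolichol, or move and remove cholesterol. Of these, 33 had a row among the 25905 genes of the comparison and 30 were among the 10669 genes that could be tested. The expression of Hmgcs1 was not analysed here. Retinas were taken from the right eyes of male, wild type C57BL/6 mice. The labels give an age of 10 weeks. The authors give this as the age of the mice that were flown, so these were older at dissection. RNA sequencing compared 8 spaceflight mice, housed aboard the International Space Station and returned alive, with 8 ground control mice kept on Earth in the same housing hardware. No allele or drug was used in either group. The flown mice were back on Earth before dissection, so flight, landing and return cannot be told apart. Each library started from 100 ng of total RNA of the whole retina.

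Cholesterol is built from acetyl-CoA through mevalonate, isoprenyl diphosphates, squalene and a series of sterol rings. When membrane sterol is low, SCAP escorts SREBP proteins out of the endoplasmic reticulum to be cleaved, and the freed fragment enters the nucleus and switches on most enzymes of the route. INSIG proteins hold SCAP back when sterol is plentiful, and liver X receptors, which sense oxysterols, switch on the efflux pumps. Farnesyl diphosphate is also the branch point for geranylgeranyl groups and for dolichol, the lipid on which N-linked sugar chains are assembled before transfer to proteins such as the visual pigments. The retina makes part of its own cholesterol, and defects in dolichol synthesis cause photoreceptor degeneration.

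Stretches before the start sites of 4 members are given because CCAAT and GC boxes bind NF-Y and Sp1, factors known to act beside SREBP, and because these genes stand for the range of the measurements: Dhdds passed the test, Nsdhl and Abca1 had the lowest log2 fold changes, and Insig1, a classical SREBP target, was near 0. These 4 were chosen after their values were seen. The letters are those of RefSeq promoters on GRCm38.p6, cut before any annotated exon and written in the direction of the gene. Capitals mark a CCAAT box (CCAAT), a GC box (GGGCGG) or an E-box (CACGTG) on either strand, with no overlap between marks.
Dhdds, chr4:134000919-134001132, minus strand: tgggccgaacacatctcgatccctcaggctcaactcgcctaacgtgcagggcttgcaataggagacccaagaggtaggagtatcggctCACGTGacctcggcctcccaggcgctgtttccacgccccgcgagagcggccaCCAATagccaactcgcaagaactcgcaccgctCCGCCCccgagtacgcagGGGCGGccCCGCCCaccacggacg
Nsdhl, chrX:72918271-72918520, plus strand: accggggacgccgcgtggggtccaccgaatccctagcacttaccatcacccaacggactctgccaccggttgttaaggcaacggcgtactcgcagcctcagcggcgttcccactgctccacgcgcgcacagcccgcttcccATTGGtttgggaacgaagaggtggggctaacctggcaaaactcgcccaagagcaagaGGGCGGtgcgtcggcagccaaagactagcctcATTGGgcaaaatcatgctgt
Abca1, chr4:53159896-53160145, minus strand: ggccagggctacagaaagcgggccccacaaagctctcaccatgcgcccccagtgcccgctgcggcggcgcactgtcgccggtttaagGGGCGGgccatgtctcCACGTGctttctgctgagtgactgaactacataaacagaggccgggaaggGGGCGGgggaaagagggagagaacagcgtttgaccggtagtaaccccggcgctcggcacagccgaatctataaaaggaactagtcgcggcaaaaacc
Insig1, chr5:28071162-28071362, plus strand: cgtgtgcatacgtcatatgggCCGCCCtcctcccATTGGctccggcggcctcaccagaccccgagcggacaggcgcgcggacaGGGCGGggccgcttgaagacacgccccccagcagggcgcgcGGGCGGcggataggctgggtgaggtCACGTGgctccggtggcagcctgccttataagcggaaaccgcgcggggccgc
The Dhdds stretch held 1 CCAAT box, 3 GC boxes and 1 E-box, and that of Insig1 held 1, 3 and 1 of these. Nsdhl had 2 CCAAT boxes and 1 GC box, and Abca1 had 2 GC boxes and 1 E-box.

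Over the 250 bases before a start site, 20 of the 24 tested members with a promoter in the table (83.3%) held a CCAAT box, against 39.9% of the 7268 tested genes found there. A GC box was present in 21 of these members (87.5%) against 65.2% of tested genes. An E-box was present in 7 (29.2%) against 10.1%. The sterol element TCACNCCAC was found before 0 of the 24 and before 1.18% of tested genes. Fdps, Fdft1, Sqle, Stard4, Npc1 and Abcg1 had no promoter in the set and were not searched. Of all 28 members with a promoter, tested or not, 1 held the element (3.57%), against 1.225% of all genes in the set. That member was Hmgcs1, which has no row in the comparison. A gene counted where any of its listed start sites had the motif. These shares describe letters alone, over a table that held 7268 of the 10669 tested genes, and carry no test.

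Levels differed widely between members. The measure was the mean normalized count, the reads of a gene scaled for library size and averaged over all libraries. Per kilobase of reference transcript it was highest for Fdps (341), Srebf2 (315) and Nr1h2 (297). The Fdps count is uncertain, since 76.4% of its transcript overlaps Gm43738 on the same strand and 6 other transcripts, Gm43738 among them, hold near-identical stretches. Fdps makes farnesyl diphosphate, the branch point of the pathway, while Srebf2 is the SREBP of sterol synthesis and Nr1h2 a liver X receptor. Srebf1 (214), Fdft1 (211), Npc1 (203), Insig1 (202), Abcg1 (188) and Idi1 (184) followed. The lowest levels per kilobase belonged to Hsd17b7 (24.7), Stard4 (26.3), Tm7sf2 (30.6) and Abca1 (38.4). Dhdds stood at 155 and Nsdhl at 80.1. These are means over all 16 libraries. The deposited counts of single libraries carry codes that name no mouse, so the spread over mice and the order of neighbouring levels were not analysed here.

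**Figure D1:**
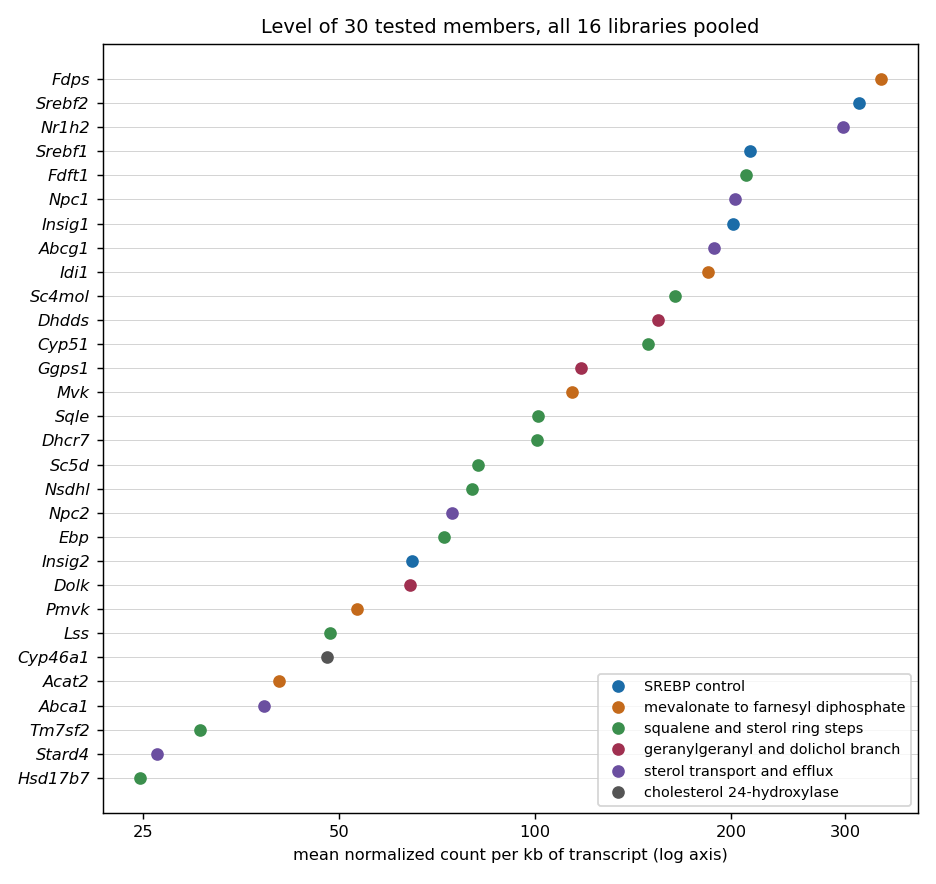
Mean normalized count per kilobase of reference transcript (log axis) for the 30 tested members, coloured by role, as 1 point a gene over all libraries. Fdps, Srebf2 and Nr1h2 lie highest, and Hsd17b7 lies lowest at 24.7.

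The comparison was the deposited DESeq2 fit of both groups, in which a positive log2 fold change means a higher level in spaceflight and p is adjusted over the tested genes by the Benjamini-Hochberg method. Dhdds was the only tested member that passed the adjusted p of 0.1 in the DESeq2 comparison, at 1 of 30 (3.33%). Over all tested genes 600 passed (5.62%), with 286 above the ground control (2.68%) and 314 under it (2.94%). No member was lower past the threshold. At an unadjusted p under 0.05 stood 5 members (16.7%), against 14.8% of all tested genes: Dhdds above 0, and Nsdhl, Abca1, Abcg1 and Npc1 below it. Both shares lay near those of all genes. The median log2 fold change of the members was -0.03, against -0.0059 over all tested genes, and 20 of 30 members (66.7%) lay below 0, against 52.2% of all.

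The values of most members were narrow around 0. The 95% interval of the fold change lay wholly within 1.2-fold in either direction for 23 of 30 members (76.7%), against 53.1% of all tested genes, and within 1.5-fold for 30 of 30. Widened by the 1.30-fold spread of all test statistics over that of a standard normal, the intervals of 16 of 30 members and 4158 of all tested genes lay within 1.2-fold. Outside the 1.2-fold bounds on at least 1 side reached the intervals of Pmvk, Tm7sf2, Nsdhl, Hsd17b7, Abca1, Dolk and Cyp46a1. Members had a median mean normalized count of 309 against 230 over all tested genes, and a median standard error of 0.07 against 0.08. A rise of 8.22% for Fdft1, the most precisely measured member, to 36.2% for Tm7sf2, the least precise, would have been needed to pass the threshold, with a median of 15.2%.

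**Figure D2:**
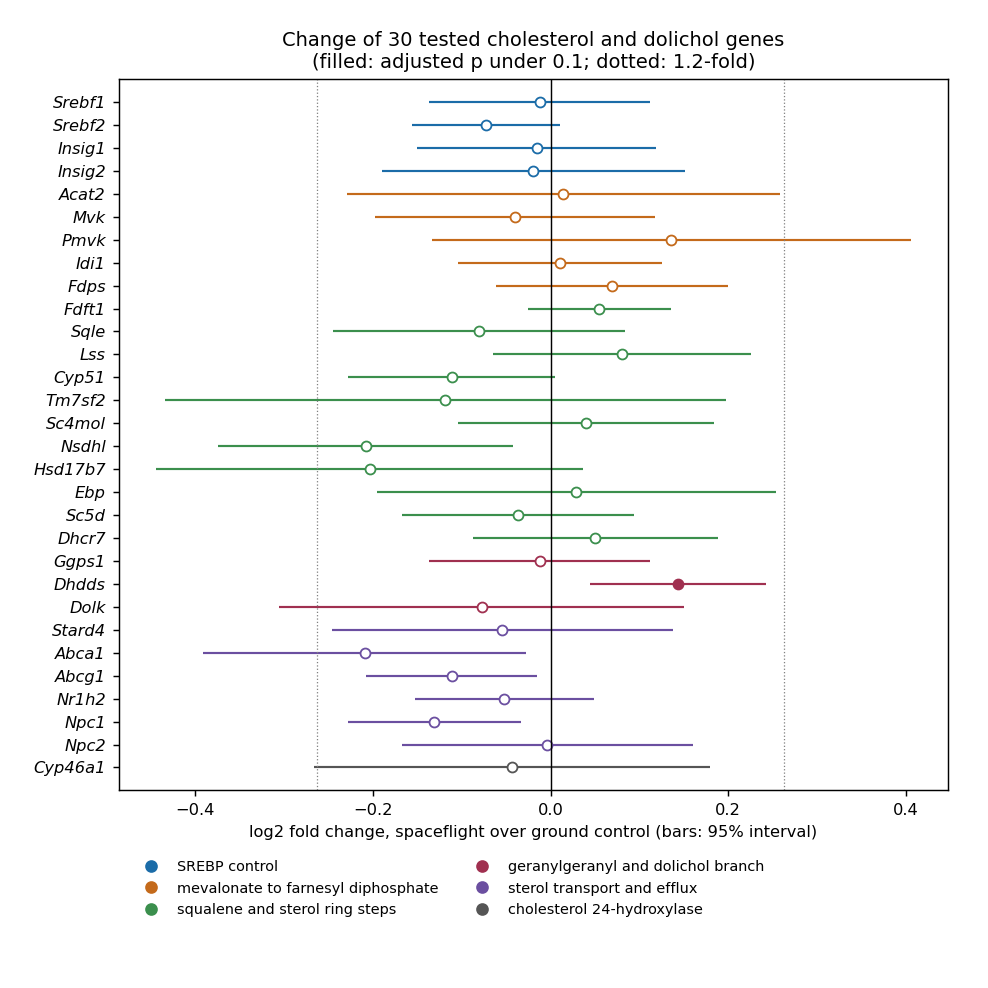
Log2 fold change, spaceflight over ground control, for each tested member with its 95% interval, grouped by role. Dhdds, drawn filled, has an interval of 0.04 to 0.24, and the intervals of the other members past an unadjusted p of 0.05 lie below 0.

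Dhdds encodes the catalytic subunit of the cis-prenyltransferase that builds the long chain of dolichol. Its mean normalized count was 485. The log2 fold change was 0.14 with a standard error of 0.05, a rise of 10.4% (95% interval 3.09% to 18.3%, n = 8 a group), with an unadjusted p of 0.00467 and an adjusted p of 0.0884 by DESeq2. No overlapping gene and no near-identical transcript was found for it. By p it ranked 564 of the 600 genes past the threshold. The call repeats that of the authors, since it is taken from their comparison. They list Dhdds among the called genes linked to retinitis pigmentosa. For the called genes the paper states an adjusted p of 0.01 in its results and 0.1 in its methods. Its number of called genes, 600, is the number under 0.1, while 220 lie under 0.01, without Dhdds. In RNA of a whole tissue, more RNA per cell and more cells that express a gene cannot be told apart. The call was lost at an adjusted p of 0.05 and when p was adjusted over all genes with a p (0.153), and also when the spread of the test statistics, 1.30 times that of a standard normal, was taken as the null.

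Nus1, the partner subunit of the Dhdds product in the same enzyme, had a mean normalized count of 323 and a log2 fold change of -0.03 (adjusted p = 0.862 by DESeq2). Dolk, the kinase that turns dolichol into the phosphate on which sugars are loaded, had a count of 135 and a log2 fold change of -0.08 (95% interval -0.31 to 0.15). Ggps1, which makes geranylgeranyl diphosphate from the same precursor, had a count of 499 and -0.01 (95% interval -0.14 to 0.11). The Ggps1 count is uncertain, since its transcript matched Gm5630 at 97.2% over 903 bases. So of the 3 members of the geranylgeranyl and dolichol branch, Dhdds alone passed. Whether it differed from Nus1 or Dolk was not tested.

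Of the controllers of SREBP, Srebf2 had a mean normalized count of 1600, the highest of the members before any correction for length, and a log2 fold change of -0.07 (95% interval -0.16 to 0.01, adjusted p = 0.436 by DESeq2). Srebf1, which favours fatty acid genes, had a count of 921 and a log2 fold change of -0.01 (95% interval -0.14 to 0.11). Insig1, whose transcript rises and falls with SREBP activity, had a count of 544 and a change of -1.06% (95% interval -9.88% to 8.61%). Insig2, which is less dependent on SREBP, had a count of 174 and a log2 fold change of -0.02. All 4 tested controllers had an interval within 1.2-fold.

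The route from acetyl-CoA to farnesyl diphosphate gave no call among 5 tested members by DESeq2, and 0 at an unadjusted p under 0.05. Acat2, the acetyl-CoA thiolase at its head, had a mean normalized count of 91.0 and a log2 fold change of 0.01. Mvk and Pmvk, the kinases that act on mevalonate in turn, had log2 fold changes of -0.04 and 0.14. Pmvk had the widest interval of these enzymes, -0.13 to 0.41, on a count of 63.7. Idi1, the isomerase of isopentenyl diphosphate, had a log2 fold change of 0.01 (95% interval -0.10 to 0.13), and Fdps 0.07 (95% interval -0.06 to 0.20). Acat2, Idi1 and Fdps share near-identical stretches with other transcripts, so their counts are uncertain: Acat2 matched Acat3 at 97.7% over 1477 bases, Idi1 matched Gm13502 over 684 bases, and Fdps matched Gm3571 at 98.9% over 1062 bases.

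The 11 steps from squalene to cholesterol were all tested, and none passed by DESeq2, with 1 at an unadjusted p under 0.05. Fdft1, squalene synthase and the first enzyme committed to sterols, had a mean normalized count of 780 and a log2 fold change of 0.05 (95% interval -0.03 to 0.14). Of its transcript, 20.9% overlaps Ctsb on the other strand, and 1249 bases are near-identical to Gm6781. Sqle, the rate-limiting epoxidase of squalene, had a log2 fold change of -0.08 (95% interval -0.25 to 0.08), and Lss, which closes the rings to lanosterol, 0.08 (95% interval -0.07 to 0.23). These opposite signs were within the error of each gene.

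Among the enzymes that trim lanosterol, Nsdhl, a dehydrogenase that helps to remove its extra methyl groups, had the lowest value: a mean normalized count of 174 and a log2 fold change of -0.21 (95% interval -0.37 to -0.04). Its unadjusted p was 0.0139 and its adjusted p 0.175 by DESeq2, so it did not pass. Hsd17b7, the ketosteroid reductase that works beside it, had -0.20 on a count of 114, with a wider interval of -0.44 to 0.04. Sc4mol, the oxidase of the same demethylating complex, now named Msmo1, had 0.04 (95% interval -0.10 to 0.18). Cyp51, the lanosterol demethylase, had a log2 fold change of -0.11 (95% interval -0.23 to 0.01, adjusted p = 0.372). The values of Nsdhl, Hsd17b7 and Sc4mol did not share a sign, and the differences between them were not tested.

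Tm7sf2, a sterol reductase, had a count of 45.0, the lowest of the tested members before any correction for length, and a log2 fold change of -0.12 (95% interval -0.43 to 0.20). Ebp, an isomerase of sterol rings, had 0.03 on a count of 126. Sc5d, a desaturase near the end of the route, had -0.04 on a count of 391. Dhcr7, the last reductase before cholesterol, had a log2 fold change of 0.05 (95% interval -0.09 to 0.19). Of all 16 tested enzymes from Acat2 to Dhcr7, without the Ggps1, Dhdds and Dolk of the side branch, 9 had values above 0 and 7 below, with a median log2 fold change of 0.01, and 12 had intervals within 1.2-fold, or 7 with the intervals widened 1.30 times.

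**Figure D3:**
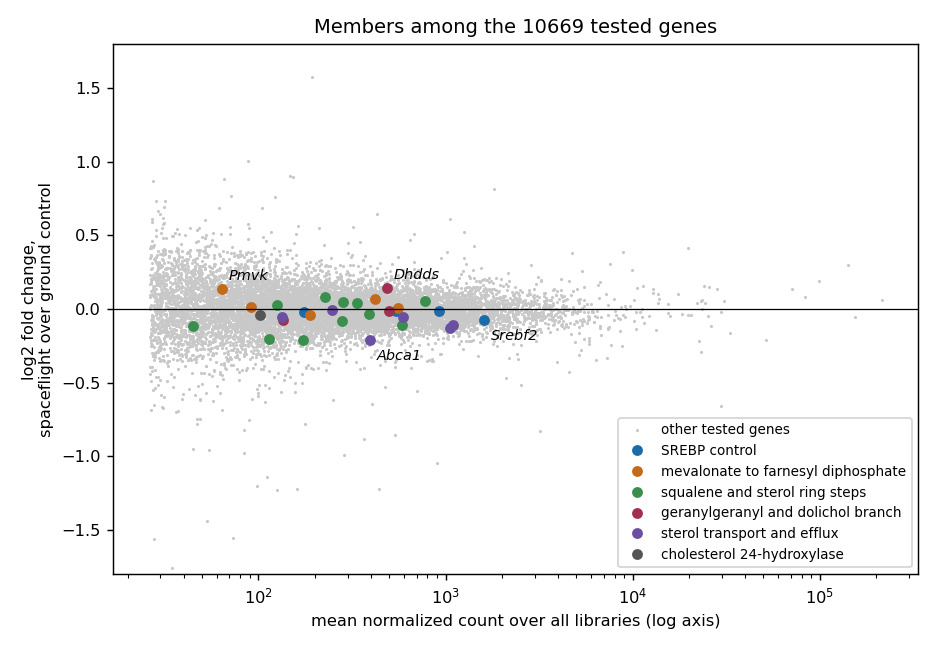
Log2 fold change against mean normalized count (log axis) for the 10669 tested genes in grey and the 30 tested members in colours by role. Members lie inside the cloud of genes of like abundance, between -0.21 and 0.14.

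The genes of sterol transport and efflux had values below 0 in 6 of 6 tested members, where 52.2% of all tested genes did, with a median log2 fold change of -0.08. None passed by DESeq2, while 3 of 6 stood at an unadjusted p under 0.05, against 14.8% of all tested genes. Npc1, which lifts cholesterol out of the lysosome, had a mean normalized count of 1060 and a log2 fold change of -0.13 (95% interval -0.23 to -0.03, adjusted p = 0.131). Abcg1, an efflux pump to lipoprotein particles and a liver X receptor target, had a count of 1098 and -0.11 (95% interval -0.21 to -0.02, adjusted p = 0.227). Abca1, the pump that loads lipid-poor apolipoprotein, had a count of 394 and -0.21 (95% interval -0.39 to -0.03, adjusted p = 0.229). The standard error of Abca1 was 1.39 times that of tested genes of like abundance, the highest ratio among members.

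Nr1h2, the liver X receptor that many cells express, had a log2 fold change of -0.05 (95% interval -0.15 to 0.05). Npc2, the soluble partner of the Npc1 product in the lysosome, had -0.00 (95% interval -0.17 to 0.16) on a count of 246. Stard4, a cytosolic sterol carrier and SREBP target, had -0.05 on a count of 134. Cyp46a1, the neuronal hydroxylase that makes cholesterol soluble enough to leave nervous tissue, had a count of 101 and a log2 fold change of -0.04 (95% interval -0.27 to 0.18). A trend of the fold change on GC content and transcript length was then removed. The values of Abcg1 (-0.08), Npc1 (-0.12), Abca1 (-0.20) and Nr1h2 (-0.02) moved towards 0. That of Stard4 moved away from 0, to -0.07. Npc2 then lay just above 0, at 0.00093, so that 5 of 6 were below it. On the other strand, 11.5% of the Npc1 transcript overlaps other genes.

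Scap, Mvd and Nr1h3 had counts too low to be tested. Scap, the escort of SREBP, had a mean normalized count of 7.08, Mvd, the decarboxylase of the mevalonate route, 0.490, and Nr1h3, the inducible liver X receptor, 0.431. Their intervals were wide, from -0.76 to 0.87 on the log2 scale for Scap, so their values are not read further. All 3 were counted under more than 1 RefSeq record. Of the members, 28 had 1 record and a median count of 363, and all 28 were tested. The 5 with several records were these 3, Insig2 and Pmvk, with a median count of 7.08. Over all genes the median count was 12.9 for the 22086 genes of 1 record and 0.806 for the 3794 genes of several, of which 16.7% were tested against 45.4%. The 3 low counts are given as counts of the table and not as levels in the retina. Those of Insig2 and Pmvk, also of several records, are uncertain too. Whether reads shared between records were dropped was not tested.

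**Figure D4:**
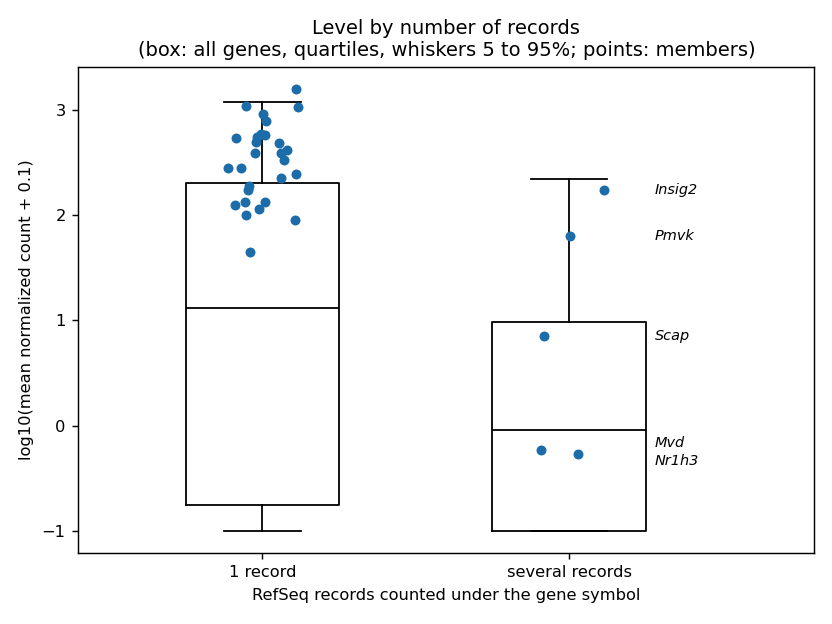
Mean normalized count, as log10 of the count plus 0.1, for genes counted under 1 or several RefSeq records, with boxes for the quartiles and whiskers at 5 and 95% of all genes and points for members. Scap, Mvd and Nr1h3 lie at 7.08 counts or less among the genes of several records.

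The wider pathway was read through 6 lists of 84 other genes, of which 71 were tested. Passing the threshold were 2 of them (2.82%, against 5.62% of all tested genes), both lower in spaceflight: Fasn and Alg10b. Fasn, the fatty acid synthase and an SREBP target, had a mean normalized count of 2010 and fell by 0.16 on the log2 scale (SE 0.05, adjusted p = 0.0670 by DESeq2). After GC content and length had been corrected for, its log2 fold change was -0.10 and its adjusted p 0.428. Among the 11 tested fatty acid targets of SREBP it was the only one called, and 3 of 11 (27.3%, against 14.8% of all tested genes) stood at an unadjusted p under 0.05, each below 0. The other two of these were Scd2, the desaturase, at -0.14 (adjusted p = 0.270), and Me1, the malic enzyme, at -0.13 (adjusted p = 0.215), the latter named after its values were seen. Also of high count was Acly, which supplies cytosolic acetyl-CoA, at 0.03.

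Alg10b adds the last glucose to the sugar chain on dolichol. It had a mean normalized count of 840 and fell by 0.14 on the log2 scale (SE 0.05, adjusted p = 0.0884 by DESeq2), opposite in sign to Dhdds. It was the only call among 19 tested genes that use dolichol or assemble its oligosaccharide, 14 of which had values below 0, with a median log2 fold change of -0.08. Alg2, a mannosyltransferase and the most abundant of the list, had -0.13 (adjusted p = 0.120), and Dpm1, of the dolichol-phosphate mannose synthase, 0.05. After the correction for GC content and length, Alg10b had -0.16 and Alg2 -0.14. Their adjusted p, from the corrected change over its standard error, was then 0.0383 and 0.0809, so Alg2 also passed 0.1. Of the 12 tested genes of the prenyl and ubiquinone branch 0 were called, with 0 at an unadjusted p under 0.05. The most abundant of these, Icmt, which caps prenylated proteins, had a log2 fold change of -0.00.

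The other genes of SREBP and sterol sensing gave 0 calls of 6 by DESeq2, with 0 at an unadjusted p under 0.05. Uptake, storage and transport gave 0 calls of 16, with 2 at an unadjusted p under 0.05 and 13 values below 0. Gramd1b, which carries sterol from the plasma membrane to the endoplasmic reticulum, had -0.02 on a count of 2188. Oxysterol and steroid conversion gave 0 calls of 7, with 0 at an unadjusted p under 0.05 and 6 values above 0. Its genes were scarce, with a median count of 45.9 and a median standard error of 0.19, and 1 of 7 intervals lay within 1.2-fold. Lbr, the most abundant of them, had a log2 fold change of 0.08.

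**Figure D5:**
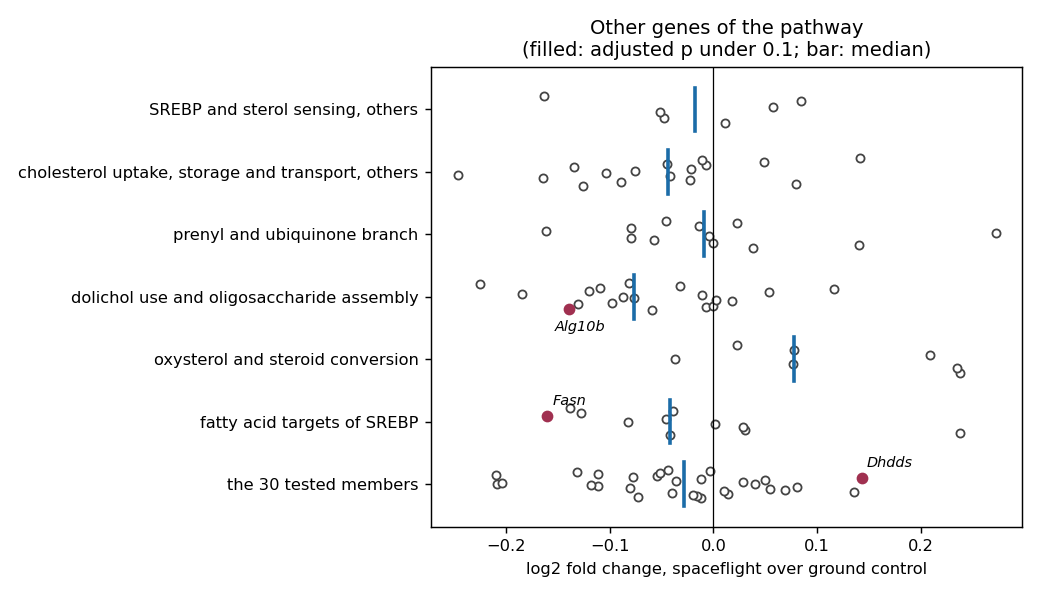
Log2 fold change, spaceflight over ground control, for 71 tested genes of 6 other pathway lists and for the 30 tested members, with a bar at each median and genes past an adjusted p of 0.1 filled. Fasn and Alg10b lie below 0 and Dhdds above it.

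Markers of retinal and neighbouring cells were set beside these values, and their part in them was not tested. Tested markers of rods had mean normalized counts from 88.9 (Nrl, of several records) to 154477 (Gnat1). Those of Müller glia ran from 857 (Kcnj10) to 17455 (Glul). Rcvrn was the only 1 of 5 tested rod markers that rose (log2 fold change 0.26), and Dkk3 and Kcnj10 were the 2 of 5 Müller markers that fell (-0.22 and -0.15), by DESeq2 at an adjusted p of 0.1, which 5.62% of all tested genes passed. The other Müller markers did not pass, with log2 fold changes of 0.10 for Glul (unadjusted p = 0.0184), 0.06 for Aqp4 and -0.01 for Slc1a3. Markers of pigment epithelium and lens were present at up to 540 (Ttr) and 898 (Cryaa) counts. The values lay below 0 for all 5 tested markers of pigment epithelium, with a median log2 fold change of -0.32, and for all 4 of lens, with a median of -1.13, and none passed or reached an unadjusted p under 0.05. Their standard errors reached 7.06 and 18.4 times those of genes at the same abundance, while those of members lay between 0.776 and 1.39 times. Of 5 tested markers each, endothelium and ganglion cells had 0 calls, with 1 each at an unadjusted p under 0.05. Among the markers not tested were Lim2 of lens (8.74 counts) and Best1 of pigment epithelium (2.72), each of 1 record, and Rlbp1 of Müller glia (1.39), Pdc of rods (0.225), Rbpms of ganglion cells (5.53) and Pecam1 of endothelium (0.446), each of several records.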

How the data were processed

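The labels assign 16 retina libraries to spaceflight and ground control, 8 each. The authors trimmed reads (Trimmomatic), mapped them with TopHat2 to an NCBI build older than GRCm38, counted them with HTSeq and compared the groups in DESeq2 1.22.2 under R 3.5.1. Deposited by the authors are, per gene, a signal (the mean of counts over size factors), a log2 fold change with its standard error, the Wald statistic (a score) and p-values. These columns hold the authors' own comparison and are the base of every value here. The 2 tables of counts hold 16 columns each under laboratory codes that no label pairs with a mouse. All 32 columns were left out, so the planned edgeR test was not run, and depth per library and values per mouse were not analysed. The summed mean normalized counts come to 6995810.

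Genes with a deposited adjusted p were taken as tested (lowest mean normalized count 26.4), and those under 0.1 as called. Intervals at 95% are normal intervals. GC content, length, overlaps and similar transcripts (BLAST 2.17.0, at least 95% identity over 75 bases) came from GRCm38. Genes were matched to it by RefSeq record, or else by symbol. No coordinate was compared between genome builds. A trend on GC content and length (splines, 4 knots) was removed as an alternative. Steps were tested on simulated data. Every member is named, of the other lists the genes called and otherwise at most the 3 most abundant. Outside this rule are Me1, Nrl and the markers given as not tested. The members and lists were chosen with earlier results of these data known. Python 3.11.15, pandas 2.3.3 and scipy 1.17.1 were used.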

Additional observations from a re-analysis of the deposited data

How the results depend on the processing

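The members called and the members called higher, 1 each (Dhdds), became 0 each at an adjusted p of 0.05, at 0.01, with p adjusted over all 19668 genes with a p, and under the null from the central spread (1.30). Of all genes, these settings called 394, 220, 431 and 120 in place of 600. The fewer calls follow from stricter settings. With a mean normalized count of at least 100, with the GC and length trend removed, or over genes of 1 record (the last added after seeing the data), 1 member was called, again Dhdds, beside 589, 472 and 584 genes. The members called lower were 0 in every setting run. The values of Srebf1, Idi1 and Npc2, which were not called, changed sign with the trend removed. GC content was at hand for 97.0% of tested genes.

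Not run, for want of a map from count columns to mice, were edgeR with trimmed means, DESeq2 on the counts, counts without a filter and the fits that leave out a library. No paired analysis was possible because the count columns carry no replicate number. How far 1 library decides a value was therefore not analysed here. The standard error set the rise a member needed, up to 36.2% for Tm7sf2. The p-values set a change against that error, as estimated from these libraries alone.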
